A study of Homo sapiens with 6 samples.

Results

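The 13 mRNAs of the human mitochondrial genome and 31 nuclear genes that maintain, transcribe and process that genome were followed in SNU449, an established hepatocellular carcinoma cell line. The members were every row of the deposited table whose symbol starts with MT- and a fixed list of 31 symbols, 44 of the 13117 genes listed, and all 44 passed the filter on low values (3 or more libraries with an FPKM of 1 or above). All cells carried the doxycycline-inducible construct pInducer20-FOXO1AAA, with a form of the transcription factor FOXO1 whose AKT phosphorylation sites are replaced, and the genotype is labelled WT. The Cont group was 3 libraries of cells without doxycycline, and the Dox group was 3 libraries of cells given 2 µM doxycycline hydrochloride for 48 h. Libraries were made from total RNA by poly(A) capture. Whether the cells were a clone, and whether each library had its own culture, is not said in the labels. The p-values therefore speak of the spread among these libraries, and that spread may be technical.

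A control with doxycycline but no construct was not among the samples, and effects of the drug cannot be told apart from those of FOXO1AAA in any value below. This matters for these genes in particular, because doxycycline belongs to the tetracyclines, antibiotics known to bind the mitochondrial ribosome as well as the bacterial one. The study asked which transcripts change when FOXO1AAA is induced. In bulk RNA, more transcript per cell and more cells that carry it cannot be told apart.

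Human mitochondrial DNA is a small circle read from both strands into long precursors, which are cut into mRNAs, rRNAs and tRNAs, mostly at the tRNAs between them. All of its mRNAs code for subunits of the respiratory chain or ATP synthase, and every protein that copies, transcribes, cuts, stabilises or degrades mitochondrial nucleic acids is imported from the cytosol. POLRMT is the mitochondrial RNA polymerase, TFAM packages the DNA and bends the promoters, and TFB2M opens them. The LRPPRC and SLIRP pair protects the mRNAs, and the helicase SUPV3L1 with the nuclease PNPT1 degrades RNA. In the nucleus, NRF1 and GABPA bind the promoters of many of these genes, and PPARGC1B is a coactivator of mitochondrial biogenesis.

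The table holds log2 FPKM (fragments scaled by transcript length and by the mapped reads of the library), and values here are FPKM unless called a log2 change. Depth was not given. Read from the smallest values, which step by whole reads, the relative depth ran from 0.79 to 1.31 of the mean, about 28.4 to 47.1 M reads on a rough scale set by transcript length. Of 11526 genes tested with limma at an adjusted p under 0.05, 37.6% were higher and 42.8% lower in Dox (80.4% in either direction), and the counts of members have to be read against these shares. With each library scaled to the sum of its nuclear genes, 5488 genes were higher (47.6%) and 3809 lower (33%), against 4329 and 4936 in FPKM as deposited. The median log2 change of all tested genes was -0.06 in FPKM and 0.19 after that scaling, so members with changes near this size have no fixed direction. The hepatocyte marker ALB was near absent, at 0.321 ± 0.239 and 1.19 ± 0.459 (SD, n = 3). FGB fell by 4.16 on the log2 scale to 8.57 ± 1.88, and AFP fell from 13.4 ± 5.27 to 6.21 ± 2.12. The other 7 of 10 hepatocyte markers were not analysed here. CD14, the immune marker with values, was at 2.13 ± 0.349 and 2.30 ± 0.065, and the summed level of 2 endothelial markers was 0.306 to 0.401 in Cont and 0.528 to 0.975 in Dox. Of 5 epithelial markers, CDH1, KRT8 and KRT18 had values, and CDH1 was near absent (means of 0.748 in Cont and 0.166 in Dox, not tested). The summed level of these 3, almost all from KRT8 and KRT18, was 122 to 127 in Cont and 32.8 to 34.5 in Dox. That of 5 mesenchymal markers was 1056 to 1059 and 436 to 500, where VIM (log2 change -1.64) and CDH2 (-1.03) fell and FN1 (1.88), ZEB1 (0.57) and SPARC (0.37) rose. These markers moved with the groups, and their part in the members' values was not tested.

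The sequences that bear on the values are shown first. MT-ATP8 and MT-ATP6 are translated from a shared mRNA and their reading frames overlap by 46 bases in GENCODE release 29 (GRCh38). The reading frame of MT-ATP8 (chrM:8366-8572, forward strand, 207 bases) is shown because its value was far below that of its partner, with the bases it shares with MT-ATP6 in capitals.
MT-ATP8: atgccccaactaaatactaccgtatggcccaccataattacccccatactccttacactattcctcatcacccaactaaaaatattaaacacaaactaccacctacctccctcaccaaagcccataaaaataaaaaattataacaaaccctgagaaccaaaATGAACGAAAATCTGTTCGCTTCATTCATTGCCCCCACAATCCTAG

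Promoters from RefSeq (GRCh38.p14) were matched for 25 of the 31 nuclear members, and CLPP, FASTKD5, MTERF3, NRF1, TOP1MT and TWNK were not matched. Each was searched on both strands, from 250 bases before to 50 bases after the start, for the NRF1 motif (its letters are the capitals in TFAM and TFB1M, with the fifth base free), the GABPA motif CCGGAAGT and the FOXO motif GTAAACA. The promoters of 6 members that hold a match are shown from 170 bases before to 30 bases after the start, 5′ to 3′ on the gene's strand, with matches in capitals. They are those of TFAM (chr10:58385240-58385439, forward strand), POLRMT (chr19:633508-633707, reverse), TFB1M (chr6:155314455-155314654, reverse), TFB2M (chr1:246566232-246566431, reverse), TEFM (chr17:30906209-30906408, reverse) and GABPA (chr21:25734802-25735001, forward). The first 5 belong to the transcription genes, and the last is a regulator whose own promoter holds its motif.
TFAM: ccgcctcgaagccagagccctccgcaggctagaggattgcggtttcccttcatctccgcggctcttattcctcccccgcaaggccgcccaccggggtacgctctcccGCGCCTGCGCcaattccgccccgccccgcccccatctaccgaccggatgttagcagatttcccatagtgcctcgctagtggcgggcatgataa
POLRMT: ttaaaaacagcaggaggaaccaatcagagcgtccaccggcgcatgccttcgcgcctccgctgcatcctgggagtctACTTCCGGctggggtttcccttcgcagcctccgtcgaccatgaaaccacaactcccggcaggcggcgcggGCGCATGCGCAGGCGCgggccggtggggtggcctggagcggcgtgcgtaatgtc
TFB1M: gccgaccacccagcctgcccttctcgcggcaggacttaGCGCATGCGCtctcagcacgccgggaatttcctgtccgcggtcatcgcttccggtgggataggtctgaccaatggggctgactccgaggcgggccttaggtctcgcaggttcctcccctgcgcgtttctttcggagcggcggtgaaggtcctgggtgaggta
TFB2M: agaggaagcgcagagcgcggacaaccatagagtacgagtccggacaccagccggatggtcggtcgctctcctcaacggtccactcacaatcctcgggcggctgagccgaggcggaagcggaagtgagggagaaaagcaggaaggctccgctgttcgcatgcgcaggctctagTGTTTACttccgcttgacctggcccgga
TEFM: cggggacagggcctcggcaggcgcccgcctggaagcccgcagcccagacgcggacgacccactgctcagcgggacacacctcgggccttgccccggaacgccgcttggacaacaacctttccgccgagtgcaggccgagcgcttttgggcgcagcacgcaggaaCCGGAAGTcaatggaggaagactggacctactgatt
GABPA: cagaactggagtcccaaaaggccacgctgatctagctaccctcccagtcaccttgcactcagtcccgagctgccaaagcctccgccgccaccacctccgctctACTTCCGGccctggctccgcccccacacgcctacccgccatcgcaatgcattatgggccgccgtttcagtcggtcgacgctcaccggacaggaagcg

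The NRF1 motif was in 5 of the 25 promoters, those of LONP1, POLG2, POLRMT, TFAM and TFB1M, and in 6.98% of all 27305 genes with a promoter and 13.9% of the 9407 tested genes with one. Its capitals in TFAM and TFB1M start 63 and 132 bases before the start, and POLRMT holds 2 overlapping matches that start 24 and 18 bases before it. The GABPA motif was in 7 promoters (28.0%), those of ELAC2, GABPA, MTERF1, MTERF4, POLRMT, SSBP1 and TEFM, and in 4.95% of all and 10.4% of tested genes with a promoter. It was in 4 of the 6 matched members that rose, in 2 of the 14 that fell and in 1 of the 5 that did not pass, and in 10.0% of all risen and 10.1% of all fallen genes with a promoter. The NRF1 motif was in 0 of the 6, 3 of the 14 and 2 of the 5, and in 13.3% of all risen and 14.4% of all fallen genes. These are counts over few members, with no test. The FOXO motif was only in the window of TFB2M among the 25, from base 3 after the start on the opposite strand, and TFB2M fell. It was in 4.19% of all and 3.43% of tested genes with a promoter. Of all risen genes 4.52% held it and of all fallen genes 2.57%, also with no test. A match describes the letters and is not a measured binding site. Only exact matches were counted, so a promoter without one may hold a near match.

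All 13 mitochondrial mRNAs rose in Dox, with a median log2 change of 1.92 against -0.06 over all tested genes (limma, each with an adjusted p between 1.26e-07 and 1.11e-05). Ratios of mean FPKM ran from 2.33-fold for MT-ND2 to 4.75-fold for MT-ATP8. In every row the lowest Dox library was above the highest Cont library, by 1.896 to 3.37 times, and all Dox values were above all Cont values in 38.4% of tested genes. The rise was kept under every alternative tried. Log2 changes were 1.52 to 2.51 after scaling to the nuclear sum and 0.52 to 2.40 under quantile normalization, taken up below. Mitochondrial genes have near-identical copies in nuclear DNA, which makes these values uncertain, with the handling of shared reads not given in the sources used here.

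Complex I, the NADH dehydrogenase, takes 7 of its subunits from the mitochondrial genome. MT-ND4 (chrM:10760-12137) was at 2223, 2676 and 3412 in Cont and at 11001, 11086 and 10609 in Dox, a log2 change of 2.00 (SE 0.14, limma adjusted p = 5.74e-07). MT-ND6 (chrM:14149-14673), the only mRNA from the opposite strand, was at 454, 546 and 613 in Cont and at 2299, 2404 and 1785 in Dox (log2 change 2.00, SE 0.14, limma adjusted p = 4.40e-07). These 2 genes had the largest changes within complex I, and the Dox libraries lay close together for MT-ND4 but were spread for MT-ND6, with Dox replicate 3 lowest. Whether reads were counted by strand is unknown. RNA from the other strand could thus not be told apart from MT-ND6 mRNA in these values. MT-ND2 (chrM:4470-5511) was at 1400, 1700 and 2096 in Cont and at 4099, 3974 and 4030 in Dox, the smallest change of the 13 (log2 change 1.24, SE 0.13, limma adjusted p = 1.11e-05). MT-ND3 went from 1222 ± 134 to 2953 ± 253 (SD, n = 3; log2 change 1.28), MT-ND1 from 1590.4 ± 252 to 4579 ± 494 (1.53), MT-ND5 from 701 ± 91.3 to 2539 ± 342 (1.85) and MT-ND4L from 1404 ± 283 to 5126 ± 432 (1.88).

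Cytochrome b, the mitochondrially encoded subunit of complex III, is the product of MT-CYB (chrM:14747-15887), which was at 943, 1091 and 1227 in Cont and at 4272, 4650 and 3848 in Dox (log2 change 1.97, SE 0.11, limma adjusted p = 1.26e-07). The catalytic core of complex IV, cytochrome c oxidase, comes from 3 genes. MT-CO1 (chrM:5904-7445) had the highest mean level of the 13 in both groups, though MT-CO2 was above it in Cont replicate 3, at 4878. MT-CO1 was at 3022, 3746 and 4552 in Cont and 14695, 15008 and 12604 in Dox (log2 change 1.92, SE 0.15, limma adjusted p = 1.05e-06). MT-CO2 went from 3764 ± 999 to 12044 ± 581 and MT-CO3 from 3310.4 ± 905 to 12240 ± 682 (SD, n = 3). In Dox, MT-CO1, MT-CO3 and MT-CO2 were, in that order, the 3 genes with the highest FPKM among all tested genes, and 12 of the 13 rows were among the 20 highest, against 5 in Cont. Under quantile normalization, which gives every library the same set of values, the log2 changes were 0.52 for MT-CO1, 0.70 for MT-CO2, 1.00 for MT-CO3 and 1.33 for MT-ND4, each over 1.5 times smaller and each still past the threshold.

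MT-ATP6 (chrM:8527-9207), a subunit of the proton channel of ATP synthase, was at 1923, 2323 and 2915 in Cont and at 10266, 10463 and 9815 in Dox (log2 change 2.11, SE 0.14, limma adjusted p = 3.30e-07). MT-ATP8, whose frame is shown above, was at 19.3, 29.7 and 22.8 in Cont and at 114, 131 and 96.4 in Dox (log2 change 2.21, SE 0.15, limma adjusted p = 4.97e-07). Although both frames lie on a shared mRNA, the FPKM of MT-ATP6 was 78.3 to 128 times that of MT-ATP8 in the 6 libraries. Both rose by similar amounts, with no overlap between groups. Whether reads in the overlap of the frames or the short length of MT-ATP8 bear on its level was not tested. By the rough depth scale, MT-ATP8 rested on at least 114 reads per library, and each of the other 12 on at least 6774.

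**Figure D1:**
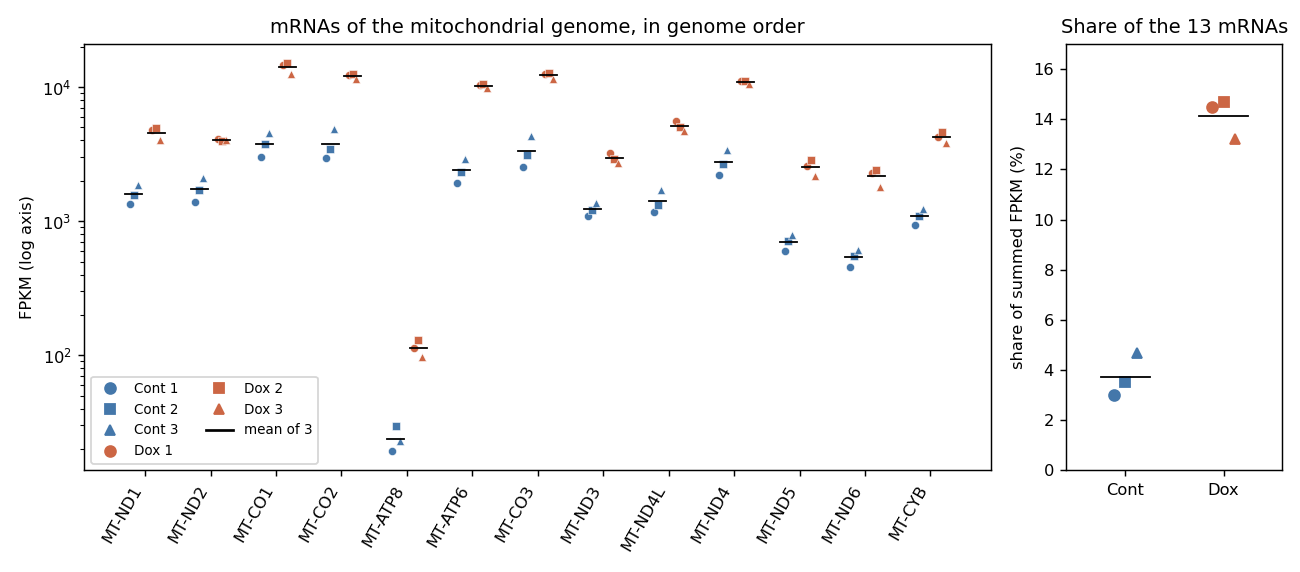
Left, FPKM on a log axis of each mitochondrially encoded mRNA in 3 Cont (blue) and 3 Dox (orange) libraries, in genome order, with symbols for the replicate number and a bar at the mean of 3. Right, the share of the summed FPKM of a library taken by the 13 mRNAs. All Dox points lie above all Cont points in each gene, MT-ATP8 lies far below the rest in both groups, and the shares are 3.00 to 4.67% in Cont and 13.2 to 14.7% in Dox.

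The 13 mRNAs moved together between libraries of the same group as well. Cont replicate 1 was the lowest Cont library in all 13 rows and Cont replicate 3 the highest in 12, the exception being MT-ATP8. Dox replicate 3 was the lowest Dox library in 12 rows, the exception being MT-ND2. The highest Cont library was 1.24 to 1.70 times the lowest, and the highest Dox library 1.03 to 1.36 times the lowest. The rows are therefore not 13 independent observations, and their count adds little to what the libraries show as units.

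As a share of the summed FPKM of a library, the 13 mRNAs took 3.00, 3.52 and 4.67% in Cont and 14.5, 14.7 and 13.2% in Dox. The means were 3.73 ± 0.855% and 14.1 ± 0.80% (SD, n = 3), a difference of 10.4 percentage points with no overlap between groups. Weighted by the length of the longest transcript of each gene, which is closer to a share of reads, the same mRNAs took 0.981 ± 0.207% and 3.66 ± 0.228%, a ratio of 3.73 against 3.79 unweighted. The summed FPKM of the other genes was 629230 ± 19556 in Cont and 517950 ± 3040 in Dox. With 3 libraries against 3, an exact permutation test cannot go below p = 0.1, so these sums are given as values.

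The make-up of the mitochondrial mRNA pool differed in part between the groups. MT-ND2 took 7.13 ± 0.0942% of the summed FPKM of the 13 mRNAs in Cont and 4.75 ± 0.307% in Dox (SD, n = 3). MT-ND3 took 5.10 ± 0.495% and 3.47 ± 0.208%, and MT-ND1 6.59 ± 0.326% and 5.36 ± 0.268%. In the other direction, MT-ATP6 took 9.82 ± 0.0579% and 11.96 ± 0.363%, and MT-ND4 11.4 ± 0.0887% and 12.8 ± 0.494%. The libraries of the groups did not overlap for these 5 genes, nor for MT-CO2 (15.4 and 14.1%) or MT-CYB (4.52 and 4.99%), and overlapped for the other 6. No test was made of the shares, which were examined after the values were seen.

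The genes nearest the heavy-strand promoter, MT-ND1 and MT-ND2, had log2 changes of 1.53 and 1.24, and the most distant, MT-CYB, had 1.97, but MT-ND3 in the middle had 1.28. Across the 12 heavy-strand mRNAs the log2 change and the start position gave Pearson's r = 0.41 and Spearman's rho = 0.35, a description over genes that share the same 6 libraries. The log2 FPKM of MT-ND6 minus the mean of the heavy-strand mRNAs was -1.25, -1.26 and -1.34 in Cont and -1.03, -0.99 and -1.23 in Dox. By this mean, which includes the low MT-ATP8, the groups were 0.20 apart and the nearest libraries almost met. Against the median of the heavy-strand mRNAs the groups were 0.45 apart. The size of this difference thus depends on how the heavy-strand level is taken. Whether poly(A) capture took MT-ND6 and the heavy-strand mRNAs alike was not tested, and whether reads were counted by strand is unknown. The difference is therefore not a measure of strand balance.

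Among the 31 nuclear members, 7 rose, 18 fell and 6 did not pass (median log2 change -0.46), where 37.6% of tested genes rose and 42.8% fell. With scaling to the nuclear sum, 11 rose and 15 fell (median -0.18, against 0.19 for all tested genes). In FPKM, TPM, nuclear-sum scaling, median-of-ratios scaling and quantile normalization alike, 7 rose and 15 fell. FASTK, FASTKD5 and POLRMT were the falls lost in at least 1 of them. Dox values lay wholly above Cont in 7 members and wholly below in 18, against 38.4% and 43.7% of tested genes (82.1% in either direction). Compared with these shares, fewer of the nuclear members rose and more fell, a difference that was not tested. Members moved in both directions.

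**Figure D2:**
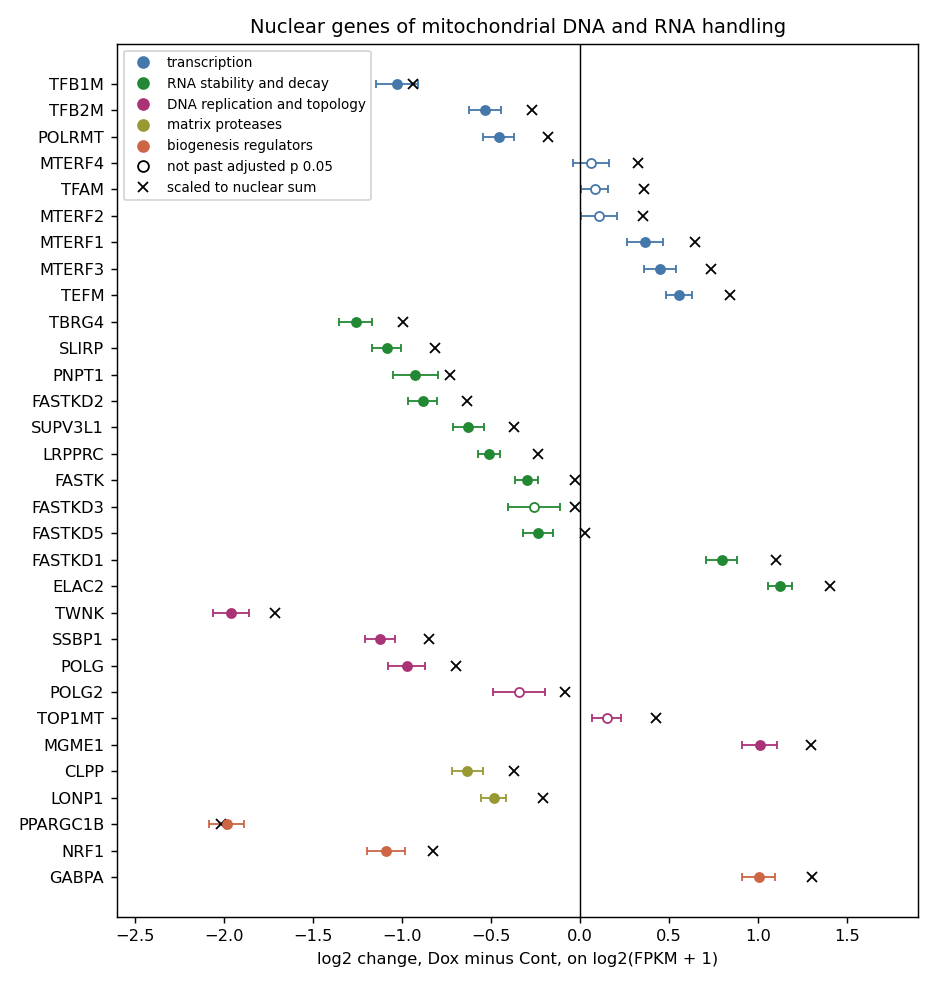
Log2 change, Dox minus Cont, of the 31 nuclear genes by role, with the limma standard error as bars. Filled points passed an adjusted p of 0.05, open points did not, and crosses give the log2 change after scaling each library to the sum of its nuclear genes. PPARGC1B and TWNK lie furthest to the left and ELAC2 furthest to the right, and the crosses of FASTK, FASTKD3, FASTKD5 and POLG2 lie near 0.

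Of 9 members that act in transcription, 3 rose, 3 fell and 3 did not pass, but 6 rose, 2 fell and 1 did not pass with nuclear-sum scaling. TFAM (chromosome 10, 58385022 to 58399221) was at 19.4, 21.8 and 19.9 in Cont and at 22.1, 20.8 and 22.0 in Dox, overlapping groups (log2 change 0.08, SE 0.07, limma adjusted p = 0.326). It passed as higher in TPM (0.20) and under nuclear-sum (0.36), median-of-ratios (0.21) and quantile (0.19) scaling. POLRMT (chromosome 19, 617224 to 633604) was at 96.5, 102 and 120 in Cont and at 79.8, 74.1 and 76.8 in Dox (log2 change -0.46, SE 0.09, limma adjusted p = 0.000727). Its groups did not overlap, but the call ended with nuclear-sum scaling (-0.18, limma adjusted p = 0.11) and quantile normalization (-0.21, limma adjusted p = 0.0647).

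The methyltransferase-like factors fell. TFB2M, the initiation factor, went from 25.4 ± 1.895 to 17.3 ± 1.48 (SD, n = 3; log2 change -0.53, limma adjusted p = 0.000302). TFB1M (chromosome 6, 155257509 to 155314493), which methylates the small mitochondrial rRNA, was at 3.56, 4.57 and 4.88 in Cont and at 1.57, 1.51 and 1.73 in Dox, 2.70-fold lower (log2 change -1.03, SE 0.12, limma adjusted p = 2.28e-05). TEFM, the elongation factor that also lets the polymerase read through, rose from 17.98 ± 1.17 to 26.9 ± 0.313 (a log2 change of 0.56, limma adjusted p = 5.77e-05). The MTERF family binds mitochondrial DNA or rRNA. MTERF1 (0.36) and MTERF3 (0.45) rose, and MTERF2 (0.11, limma adjusted p = 0.35) and MTERF4 (0.06, limma adjusted p = 0.578) did not pass, though both passed as higher with nuclear-sum scaling.

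Of 11 members of RNA processing, stability and decay, 8 fell, 2 rose and 1 did not pass, against 6, 2 and 3 with nuclear-sum scaling. LRPPRC (chromosome 2, 43886508 to 43996005), which keeps mitochondrial mRNAs stable, was at 61.8, 65.2 and 60.9 in Cont and at 43.5, 42.7 and 44.7 in Dox (log2 change -0.51, SE 0.06, limma adjusted p = 3.75e-05). Its partner SLIRP (chromosome 14, 77708071 to 77761104) was at 96.2, 98.9 and 83.8 in Cont and at 45.0, 40.2 and 44.4 in Dox, 2.15-fold lower (log2 change -1.09, SE 0.08, limma adjusted p = 1.01e-06). The mRNAs of this protecting pair were thus lower in the libraries where the mitochondrial mRNAs were higher. The degradation genes were lower too. PNPT1 went from 9.13 ± 0.599 to 4.38 ± 0.87 (log2 change -0.93, limma adjusted p = 7.30e-05) and SUPV3L1 from 22.5 ± 0.523 to 14.3 ± 1.47 (-0.63, limma adjusted p = 8.09e-05).

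The FASTK family holds RNA-binding proteins that act on particular mitochondrial transcripts. TBRG4, also known as FASTKD4, (chromosome 7, 45100100 to 45112047) was at 70.6, 72.2 and 73.4 in Cont and at 26.9, 27.9 and 34.2 in Dox, 2.43-fold lower (log2 change -1.26, SE 0.09, limma adjusted p = 7.28e-07). FASTKD2 went from 22.1 ± 1.495 to 11.5 ± 0.698 (log2 change -0.88), and FASTKD1 rose from 4.95 ± 0.0428 to 9.34 ± 0.809 (0.80, limma adjusted p = 1.73e-05). The family therefore moved in both directions. FASTK, at 47.2 ± 1.16 and 38.2 ± 1.25 (log2 change -0.30), passed as lower but gave -0.03 (limma adjusted p = 0.716) with nuclear-sum scaling. FASTKD5, needed for cutting mRNA junctions that lack a tRNA, gave -0.23 (limma adjusted p = 0.0259) in FPKM and 0.03 (limma adjusted p = 0.763) with nuclear-sum scaling. Its call also ended without Cont replicate 1 (-0.24, limma adjusted p = 0.0631), Cont replicate 2 (-0.23, limma adjusted p = 0.074) or Dox replicate 2 (-0.16, limma adjusted p = 0.109). FASTKD3 did not pass (-0.26, limma adjusted p = 0.131) but fell without Dox replicate 1 (-0.40, limma adjusted p = 0.0202).

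ELAC2 (chromosome 17, 12992391 to 13018187), the nuclease that cuts the 3′ ends of tRNAs out of mitochondrial and nuclear precursors, had the largest rise of the 31. It was at 47.7, 46.8 and 47.2 in Cont and at 108, 107 and 96.8 in Dox, 2.20-fold higher (log2 change 1.12, SE 0.07, limma adjusted p = 1.901e-07). The Cont libraries lay close together and every Dox library was far above them.

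Of 6 members of DNA replication and topology, 3 fell, 1 rose and 2 did not pass, against 3, 2 and 1 with nuclear-sum scaling. TWNK (chromosome 10, 100987367 to 100994401), the helicase of the replication fork, was at 63.1, 63.6 and 59.3 in Cont and at 13.6, 18.03 and 14.2 in Dox, 4.05-fold lower (log2 change -1.96, SE 0.10, limma adjusted p = 6.86e-08). SSBP1 (chromosome 7, 141738321 to 141787922), which coats single-stranded mitochondrial DNA, was at 197, 195 and 184 in Cont and at 90.6, 77.6 and 95.5 in Dox, 2.18-fold lower (log2 change -1.12, SE 0.08, limma adjusted p = 9.32e-07). The catalytic polymerase gene POLG went from 615 ± 71.0 to 313 ± 36.8 (SD, n = 3; log2 change -0.97, limma adjusted p = 1.35e-05). TWNK, POLG and SSBP1, 3 genes of the minimal replication fork, were each lower in every Dox library than in any Cont library. The same held for 43.7% of tested genes. The accessory polymerase subunit gene POLG2, given next, overlapped between the groups.

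The accessory subunit POLG2 was at 11.4, 12.3 and 17.8 in Cont and at 11.5, 10.2 and 9.88 in Dox, overlapping groups (log2 change -0.34, limma adjusted p = 0.0546). It passed as lower without Cont replicate 1 (-0.46, limma adjusted p = 0.0177), Cont replicate 2 (-0.41, limma adjusted p = 0.0491) or Dox replicate 1 (-0.40, limma adjusted p = 0.0498). The exonuclease gene MGME1 (chromosome 20, 17968913 to 17991122), which trims ends left by replication, rose from 24.3, 24.5 and 21.2 in Cont to 45.3, 44.4 and 54.7 in Dox, 2.06-fold (log2 change 1.01, SE 0.10, limma adjusted p = 5.60e-06). The topoisomerase gene TOP1MT was at 51.0 ± 3.79 and 56.8 ± 4.35 (0.15, limma adjusted p = 0.114) and passed as higher with nuclear-sum scaling (0.43, limma adjusted p = 0.000512).

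Both matrix proteases fell. LONP1, which degrades TFAM that is not bound to DNA, went from 68.1 ± 2.82 to 48.4 ± 2.95 (SD, n = 3; log2 change -0.48, limma adjusted p = 0.000123), and CLPP, the proteolytic subunit of the ClpXP protease, from 25.7 ± 2.35 to 16.2 ± 0.815 (-0.63, limma adjusted p = 7.26e-05).

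The nuclear regulators divided. PPARGC1B (chromosome 5, 149730298 to 149855022) was at 7.21, 7.64 and 6.92 in Cont and at 0.944, 1.08 and 1.24 in Dox, 6.66-fold lower (log2 change -1.98, SE 0.10, limma adjusted p = 6.00e-08). By ratio this was the largest difference of the 44 members in either direction. NRF1 (chromosome 7, 129611714 to 129757082), whose motif is shown above in the TFAM, POLRMT and TFB1M promoters, was at 60.3, 47.4 and 60.5 in Cont and at 23.4, 26.4 and 27.3 in Dox, 2.18-fold lower (log2 change -1.09, SE 0.11, limma adjusted p = 5.97e-06). GABPA (chromosome 21, 25734570 to 25772460), the DNA-binding subunit of the factor GABP, was at 7.54, 9.54 and 8.80 in Cont and at 18.5, 17.8 and 18.4 in Dox, 2.11-fold higher (log2 change 1.00, SE 0.09, limma adjusted p = 4.03e-06). NRF1 and GABPA mRNA moved in opposite directions, with no overlap between groups for either. Among the 31 nuclear members, 3 rose with a log2 change of 1 or more and 7 fell by 1 or more, where 16.3% and 16.6% of tested genes did.

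**Figure D3:**
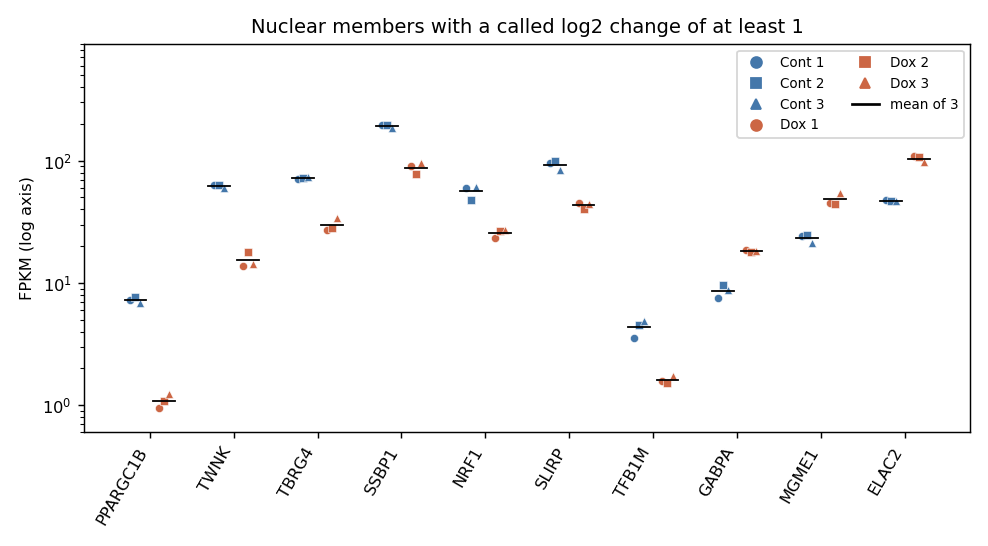
FPKM on a log axis of the 10 nuclear members that passed an adjusted p of 0.05 with a log2 change of at least 1 in size, ordered by log2 change, in 3 Cont (blue) and 3 Dox (orange) libraries with a bar at the mean of 3. The groups are apart in all 10, with 7 lower and 3 higher in Dox, and PPARGC1B falls to about 1 FPKM.

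Other genes of mitochondrial gene expression were taken from fixed lists that leave out the members. Those of RNA processing, translation and the mitochondrial ribosome were mostly lower. The counts of these lists have to be read against all tested genes, of which 37.6% rose and 42.8% fell. With nuclear-sum scaling these shares were 47.6% and 33%. Of 37 genes with values that process or modify mitochondrial RNA or act in translation, 26 fell and 5 rose (median log2 change -0.52), against 22 and 7 with nuclear-sum scaling. The elongation factor gene TUFM fell from 143 ± 6.08 to 47.6 ± 2.12 (SD, n = 3; log2 change -1.56), the rRNA methyltransferase gene MRM2 by 1.40 on the log2 scale and NSUN4 by 1.18. MTPAP, the mitochondrial poly(A) polymerase, rose from 8.84 ± 0.782 to 23.0 ± 1.56 (a log2 change of 1.29, limma adjusted p = 5.38e-07), and the release factor genes MTRF1 (1.26) and MTRF1L (0.49) rose. MTPAP bears on the assay as well as on the biology, because these libraries capture RNA by its poly(A) tail. Its part in the higher mitochondrial mRNA values was not tested.

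Of 75 tested genes of the mitochondrial ribosome, matched by the symbols MRPL and MRPS, 59 fell and 10 rose (median log2 change -0.70), against 48 and 12 with nuclear-sum scaling. MRPL12, a ribosomal protein also reported to bind the mitochondrial RNA polymerase, fell from 39.0 ± 4.25 to 8.60 ± 1.87 (SD, n = 3; log2 change -2.07), and MRPL15 (-1.97) and MRPL3 (-1.85) fell as well. MRPL44 (1.66), MRPS5 (1.47) and MRPL13 (0.81) rose.

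Of 25 genes of mitochondrial DNA maintenance and nucleotide supply, 14 fell and 8 rose, but 10 fell and 10 rose with nuclear-sum scaling. The flap nuclease gene FEN1, shared with nuclear replication, fell from 71.7 ± 4.04 to 10.1 ± 2.29 (SD, n = 3; log2 change -2.73), and ATAD3A (-1.79) and ATAD3B (-1.38), a pair of near-identical genes whose reads may be shared, fell. Genes of nucleotide supply went both ways. SLC25A36, a mitochondrial pyrimidine nucleotide carrier, rose from 5.66 ± 0.0665 to 34.8 ± 4.65 (a log2 change of 2.42, limma adjusted p = 1.84e-08), the ribonucleotide reductase subunit gene RRM2B from 9.83 ± 0.0519 to 40.8 ± 2.24 (1.95) and the mitochondrial thymidine kinase gene TK2 from 27.5 ± 3.48 to 57.0 ± 1.76 (1.03). SLC25A33, another pyrimidine nucleotide carrier, fell (-1.03), and the deoxyguanosine kinase gene DGUOK did not pass (-0.02); both were named after their values were seen.

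Of 11 other regulators of biogenesis that were tested, 4 rose and 5 fell, and with nuclear-sum scaling 5 rose and 4 fell. PPRC1, a coactivator related to PPARGC1B, fell from 30.96 ± 1.14 to 5.45 ± 0.047 (SD, n = 3; log2 change -2.31, limma adjusted p = 3.73e-09), as did YY1 (-1.15) and GABPB1 (-0.51), which codes for a partner subunit of GABPA. CREB1 (1.896), SIRT1 (1.28) and PPARA (1.06) rose. PPARGC1A was not analysed here. The 2 coactivators of the family with values, PPARGC1B and PPRC1, were thus both lower, and the GABP subunits GABPA and GABPB1 went in opposite directions. GABPB2, which codes for another partner subunit, was named after its values were seen. It was at 15.3 ± 3.05 and 16.8 ± 4.22, with overlapping groups, and did not pass (log2 change 0.11, limma adjusted p = 0.587).

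The nuclear-encoded subunits that join the mitochondrially encoded ones in each complex gave no such rise. They were matched by symbol, a pattern that also takes NDUFA4, COX7A2L and ATP5IF1, which belong to other complexes or are regulators. In complex I, all 7 mitochondrial subunits rose (median log2 change 1.85), while 8 of 35 tested nuclear subunits rose and 17 fell (median -0.21). In complex III, 1 of 9 nuclear subunits rose and 6 fell (median -0.43), in complex IV 3 of 10 rose and 1 fell (0.01), and in ATP synthase 0 of 18 rose and 11 fell (-0.41). Over these and complex II, whose 4 subunits are all nuclear, 13 of 76 rose and 37 fell, but 30 rose and 24 fell with nuclear-sum scaling. All tested genes shifted in the same way, from 37.6% higher and 42.8% lower to 47.6% and 33% with that scaling. The balance of rises and falls among the nuclear subunits therefore depends on the scaling, as it does for all tested genes. The mitochondrial subunits rose under each scaling.

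A ratio within a library is not changed by a scaling factor for the whole library. The mean log2 FPKM of the mitochondrial subunits of complex I lay above that of its nuclear subunits by 4.80, 5.02 and 5.43 in Cont and by 6.86, 6.89 and 6.75 in Dox, a shift of 1.75 in log2 (3.37-fold). The shift was 2.40 for complex III (5.30-fold), 1.83 for complex IV (3.55-fold) and 2.67 for ATP synthase (6.36-fold). In all 4 complexes every Dox library was above every Cont library, and the Cont libraries were more spread (SD 0.299 to 0.494) than the Dox libraries (0.0707 to 0.145). Quantile normalization is not such a factor and narrowed the gap in complex IV, where the median log2 change was then 0.70 for the mitochondrial and 0.28 for the nuclear subunits. In complex I these medians were 1.38 and -0.04, in complex III 1.94 and -0.17 and in ATP synthase 1.93 and -0.22. In FPKM as deposited the balance of mRNA from the 2 genomes was thus moved toward the mitochondrial one in each complex that draws on both.

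**Figure D4:**
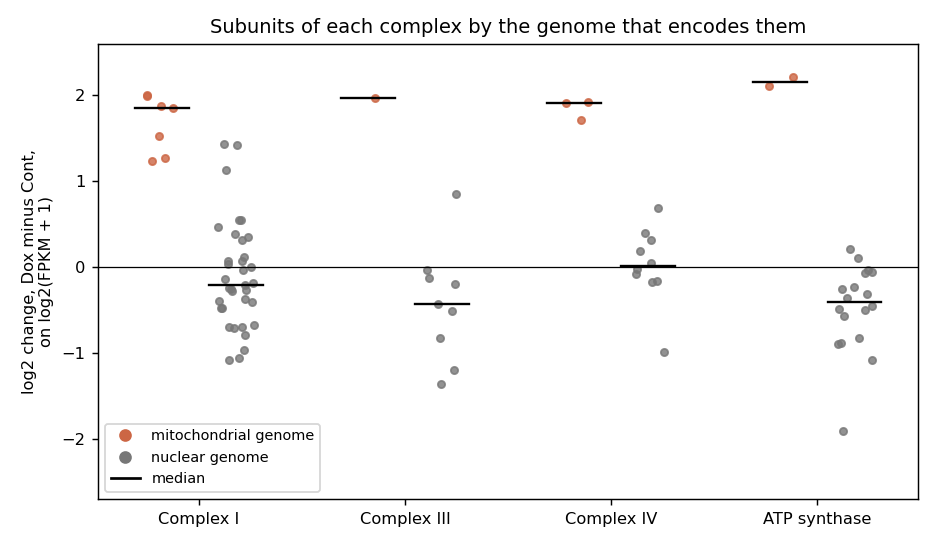
Log2 change, Dox minus Cont, of each tested subunit mRNA of complexes I, III and IV and ATP synthase, with mitochondrially encoded subunits in orange, nuclear-encoded subunits in grey and a bar at the median. The orange points lie between 1.24 and 2.21 and above every grey point of complexes III and IV and ATP synthase, while 2 grey points of complex I, NDUFS1 (1.44) and NDUFC1 (1.43), reach into the range of the orange ones.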

How the data were processed

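The authors deposited 1 table of log2 FPKM for 13117 genes in 3 Cont and 3 Dox libraries, from -8.59 to 13.9, per the file and the labels; the file name says FPKM and the values are on a log2 scale. FastQC 0.11.7 and GRCh38 are named, per the submitters' processing notes; the aligner, counter, annotation and filters are not given in the sources used here. Columns were matched by title, since for Cont replicate 1 the description points to the column of replicate 2. FPKM was taken as 2 to the power of the deposited value. After a filter (3 or more libraries with an FPKM of 1 or above), 11526 genes were tested by limma 3.58.1 (R 4.3.3) with trend and moderation. The scale was log2(FPKM + 1), which understates the change of low genes. Tests were two-sided, adjusted by Benjamini-Hochberg over all genes (threshold 0.05). The fit was tested on simulated data with few changed genes, as many up as down, and no shift in scaling. That test does not show how the fit behaves with changes as broad as those found here. Fold changes are ratios of mean FPKM. Depth was estimated from 307 genes whose lowest value was shared by at least 2 libraries, where values up to 20 reads lay within 0.05 of whole reads; it is rough, and precision below that scale is unknown. Coordinates are from GENCODE 29. Members and lists were chosen with earlier results of these data known. All members are described; from each other list at most 3 called genes in each direction, those with the largest changes, are named. Alternatives were other pseudocounts, filters, scalings and moderation, the deposited log2 values, the replicate number as a block, and leaving out each library.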

Additional observations from a re-analysis of the deposited data

How the results depend on the processing

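All 13 mitochondrial mRNAs were called higher under each of the 18 alternatives fitted with limma, leaving out any library included. The nuclear members called higher numbered 7, 9 in TPM and under median-of-ratios or quantile scaling, and 11 with nuclear-sum scaling, where each library is set against the sum of its nuclear genes; those called lower numbered 18, and 15 to 20 over the alternatives. FASTKD5 turned from -0.23 to 0.0293 with nuclear-sum scaling. The calls of 44 members were kept under both pseudocounts, no filter, the deposited log2 values, no trend, robust moderation and without Cont replicate 3 or Dox replicate 3. With the replicate number as a block, 4335 genes were higher and 4937 lower, 7 nuclear members rose, 18 fell, and no member's call changed. The correlations of deviations of same-numbered libraries were 0.04, -0.0048 and 0.08, too small to show a pairing by replicate number. Cont replicates 1 and 3 correlated best with the Dox library of the same number, and Cont replicate 2 with Dox replicate 1 (0.09). Values this small among so few libraries cannot exclude a pairing. The share of summed FPKM differed by 10.0 to 10.9 percentage points without any 1 library, 10.4 over tested genes only and 2.68 when weighted by length. The distance of MT-ND6 from the mean of the heavy-strand mRNAs differed by 0.15 to 0.27 without any 1 library. Depth limits TFB1M and MT-ATP8 most, at about 72 and 114 reads in the lowest library.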

Other observations

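Mitochondrial chaperones and proteases other than LONP1 and CLPP were mostly lower as well. Of 17 genes with values on this list, 11 fell and 4 rose (limma, median log2 change -0.70, against -0.06 for all tested genes), and 9 fell and 6 rose with nuclear-sum scaling. Over all tested genes 42.8% fell and 37.6% rose, and 33% and 47.6% with that scaling. The chaperonin pair of the matrix fell, with HSPD1 going from 727 ± 41.1 to 123 ± 17.6 FPKM and its lid HSPE1 from 158 ± 23.2 to 33.8 ± 2.57 (SD, n = 3; log2 changes -2.56 and -2.18). TRAP1, the mitochondrial member of the HSP90 family, fell from 142 ± 14.4 to 34.9 ± 4.19 (log2 change -1.99). Among the rises were OMA1, an inner membrane protease that responds to stress, (log2 change 0.78, limma adjusted p = 0.000146), LACTB, a filament-forming protein of the intermembrane space, from 17.2 ± 1.44 to 42.1 ± 5.04 (1.24), and SPG7, a subunit of the membrane-bound m-AAA protease, from 138 ± 10.0 to 199 ± 6.25 (0.53).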
